A study of Mus musculus with 18 samples.

Results

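The sites described here are 1048 stretches of liver chromatin with a called peak in only 1, 2 or 3 of 7 inbred mouse strains. By read count they were nevertheless among the sites with the least evidence of a difference between these strains. They were selected on measured values. The study compared quantile-normalized reads over the union of all accessible sites between strains with DESeq, and the sites with the largest adjusted p-values form the deposited list of common (least variable) sites, while those with the smallest form the list of variable sites. Of 2539 common sites, 2531 lie on autosomes, and those overlapped by at least 1 bp by a peak in 1 to 3 of the 7 inbred peak lists are the members, which make up 1048 of 50775 union sites in all. Among all 50121 autosomal union sites, 48.6% had a peak in 1 to 3 lists. This number describes the rule and supports nothing about the members. A peak was called in 1 strain at 515 members, in 2 strains at 319 and in 3 strains at 214.

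The data are FAIRE-seq of liver from male mice of the inbred strains CBA/J, DBA/2J, C3H/HeJ, A/J, BALB/cJ, AKR/J and C57BL/6J, which were fed chow to 8 weeks of age and then for 8 weeks a diet high in fat and sucrose (HF/HS). BXH19/TyJ and BXH2/TyJ, recombinant inbred lines bred from C57BL/6J and C3H/HeJ, were also profiled in liver on the HF/HS diet, and were fed and kept in the same way. All 9 strains had 2 mice, or 18 samples, and every group ate the HF/HS diet, so there is no control diet here. Each strain has 1 deposited peak list that combines its 2 mice. A call therefore has no replicate error, and the spread between mice could not be measured. The study lists read totals for each library, which were not used here, and the peak lists hold no read counts, so the number of reads behind a single call is not known. The statement that members are stable in reads comes from the deposited ranking by adjusted p-value and was not recomputed. A large adjusted p-value does not measure how small a difference is, since a weak site with few reads can also give one. Liver is a mixture of cells, and a site open in fewer cells cannot be told apart from a site that is less open in each cell.

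FAIRE recovers DNA that is not wrapped in nucleosomes from fixed tissue, so that promoters and enhancers in use appear as pile-ups of reads. A peak caller turns this continuous signal into a list by a threshold, and a weak site close to that threshold can be listed in one sample and missing in the next. In hepatocytes, strong promoters are open in nearly all cells, while distal enhancers bind liver factors such as HNF4A, C/EBP, FOXA and nuclear receptors and are more graded. The members were therefore described by how far above the threshold they lay, by their state in the BXH lists, which had no part in choosing them, and by their sequence and position.

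The central 200 bases of 6 members are shown first, because these sites recur in the results below. They are the members inside Lipc (hepatic lipase) and the member nearest to the transcription start site (TSS) of a gene in each of 4 further gene lists. Sequences are from NCBIM37, the assembly that is mm9, forward strand, 5′ to 3′, and capitals mark matches to 13 short motifs searched on both strands.
Lipc, distal member, chr9:70711165-70711364: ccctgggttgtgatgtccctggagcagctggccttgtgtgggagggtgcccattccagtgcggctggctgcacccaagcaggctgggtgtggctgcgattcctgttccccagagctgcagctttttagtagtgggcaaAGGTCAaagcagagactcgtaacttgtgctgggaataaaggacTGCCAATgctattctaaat
Lipc, proximal member, chr9:70783845-70784044: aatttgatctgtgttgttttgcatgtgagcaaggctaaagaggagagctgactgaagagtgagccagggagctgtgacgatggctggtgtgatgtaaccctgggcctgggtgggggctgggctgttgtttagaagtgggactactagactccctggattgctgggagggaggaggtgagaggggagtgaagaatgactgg
Gcgr, chr11:120395493-120395692: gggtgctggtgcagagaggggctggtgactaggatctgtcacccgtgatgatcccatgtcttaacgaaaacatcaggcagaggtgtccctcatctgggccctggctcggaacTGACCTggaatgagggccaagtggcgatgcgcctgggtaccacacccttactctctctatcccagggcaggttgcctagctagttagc
Hnf4a, chr2:163363264-163363463: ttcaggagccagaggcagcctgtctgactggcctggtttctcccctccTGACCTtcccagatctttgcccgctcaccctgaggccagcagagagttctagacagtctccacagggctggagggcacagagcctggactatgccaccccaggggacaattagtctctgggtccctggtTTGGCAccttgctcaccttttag
F11, chr8:46353379-46353578: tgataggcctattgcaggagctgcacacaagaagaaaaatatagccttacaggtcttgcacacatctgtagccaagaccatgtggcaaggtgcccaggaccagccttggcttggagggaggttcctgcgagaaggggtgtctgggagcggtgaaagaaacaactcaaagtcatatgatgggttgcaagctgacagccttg
Per2, chr1:93341510-93341709: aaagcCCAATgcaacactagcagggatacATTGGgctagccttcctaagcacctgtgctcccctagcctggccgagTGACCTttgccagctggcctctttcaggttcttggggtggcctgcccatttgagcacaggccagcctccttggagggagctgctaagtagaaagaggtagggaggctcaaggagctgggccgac
The GC content of these windows ran from 51.5% to 59.0%, and 4 of the 6 held at least 1 of the 13 motifs. AGGTCA, the core letters that nuclear receptors bind, was found on either strand in the windows of the distal Lipc member, Gcgr, Hnf4a and Per2.

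The 7 inbred lists held 26769 to 30613 peaks, and every peak ended inside its NCBIM37 chromosome. As a check of the tissue, a peak lay within 1 kb of a TSS in 8 or 9 lists for the hepatocyte genes Apoa1, Ttr and Serpina1a, in 2 lists for Alb and in 0 for Cyp7a1. Of these 5 hepatocyte genes, 1 had such a peak in all 9 lists. Of 14 markers of other liver cells, 9 had no such peak in any list and 0 had one in all 9 lists. Stab2 of endothelium had one in 6 lists, more than Alb and Cyp7a1, and Pecam1, Des, Lrat and Epcam in 1 list each. A/J stood apart from the other lists. It called 39.9% of the 21616 other autosomal sites with a peak in 1 to 3 strains (sites that are neither common nor variable), against 13.8% to 20.4% in the other 6 lists, and 6311 of these sites were called in A/J alone. These are named A/J-only sites, and comparisons are given with them and, as an alternative chosen after the data were seen, without them, which leaves 15305.

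Peaks at members had low scores in every inbred list. The deposited score has its own scale in each list, so it was turned into a percentile among all peaks of that list, with 0 at the weakest peak. The 1795 peaks at members had a median percentile of 9.78, and their middle 50% ran from 4.36 to 16.9. Of these peaks 83.0% lay below percentile 20, and 1 lay above 50, an A/J peak at percentile 55.1. The median by list was 6.67 in AKR/J, 7.64 in BALB/cJ, 9.79 in CBA/J, 9.89 in C3H/HeJ, 10.8 in DBA/2J, 11.1 in C57BL/6J and 16.5 in A/J. In raw score, the median peak at a member was 1.06 to 1.16 times the lowest score of its list, whereas the median of all peaks was 1.42 to 2.45 times the lowest. Of the 1048 members, 1003 (95.7%) had no peak left in any inbred strain when only the 20000 highest peaks of each list were kept. These values follow in part from the rule and are given as a description. For other sites called in 1 to 3 strains the median percentile was 18.2, for common sites called in 4 to 6 strains 21.5, and for common sites called in 7 strains 81.4.

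**Figure D1:**
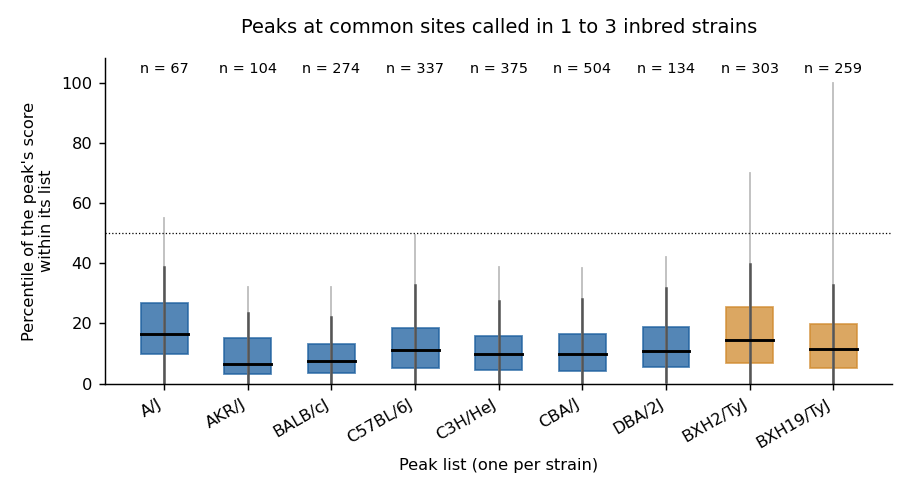
Percentile of the score of peaks at members within each of the 9 peak lists, with 0 the weakest peak. Boxes span the 25th to 75th percentile of the members' peaks with the median as a black line (blue for inbred and orange for BXH lists), dark lines reach from the minimum to the 95th percentile, grey lines to the maximum, the dotted line marks percentile 50 and n is the number of members called. Medians lie between 6.67 and 16.5 in the inbred lists, and at 14.5 in BXH2/TyJ and 11.4 in BXH19/TyJ.

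Members were narrow, with a median width of 294 bp (middle 50% 260 to 362 bp), against 350 bp at other sites called in 1 to 3 strains and 1066.5 bp at common sites called in 7 strains. Sites are merged over the calling strains, so width is bound to their number and is not tested. Members called in 1, 2 and 3 strains had median widths of 272, 302 and 345 bp and median percentiles of 7.28, 9.92 and 12.03. At the edge of the rule, the 214 members called in 3 strains had a median percentile of 12.03 and the 156 common sites called in 4 strains one of 16.2. The step from 3 to 4 strains was thus one of degree, with 345 against 368 bp of median width and a TSS within 1 kb at 11.2% against 10.3% of sites.

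The strains shared the members unevenly. CBA/J called 504 members (48.1%), C3H/HeJ 375 (35.8%), C57BL/6J 337 (32.2%), BALB/cJ 274 (26.1%), DBA/2J 134 (12.8%), AKR/J 104 (9.92%) and A/J 67 (6.39%). The order differed from that at other sites called in 1 to 3 strains, of which A/J called 39.9% and CBA/J 18.4%. Without A/J-only sites, the 7 lists called between 15.1% (A/J) and 28.9% (C57BL/6J) of the other sites, and CBA/J 25.9%. At least 1 of CBA/J, C3H/HeJ, C57BL/6J and BALB/cJ called 972 members (92.7%), against 53.4% of other sites, or 75.4% without A/J-only sites. The lists held 30613 peaks in CBA/J, 30598 in C57BL/6J, 30370 in C3H/HeJ, 30077 in BALB/cJ, 29923 in AKR/J, 29914 in A/J and 26769 in DBA/2J. CBA/J, C3H/HeJ, C57BL/6J and BALB/cJ, which called the most members, thus also had the longest lists. DBA/2J had the shortest list but called more members than AKR/J and A/J. The part of list length in these shares was not tested. Since calls chose the members, none of these shares was tested.

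Members called in a single strain were most often called in CBA/J (164 sites), followed by C3H/HeJ (112), C57BL/6J (105), BALB/cJ (62), DBA/2J (41), AKR/J (17) and A/J (14). The most frequent pair was C57BL/6J with CBA/J at 62 members, ahead of C3H/HeJ with CBA/J at 46. Among the other sites the pair C57BL/6J with CBA/J made up 1.51% of the set, or 2.14% without A/J-only sites, against 5.92% of the members. The most frequent triple was BALB/cJ, C3H/HeJ and CBA/J at 41 members. It held 3.91% of members against 1.82% of other sites, or 2.57% without A/J-only sites. All 7 single strains, 19 of 21 pairs and 30 of 35 triples occurred among the members.

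**Figure D2:**
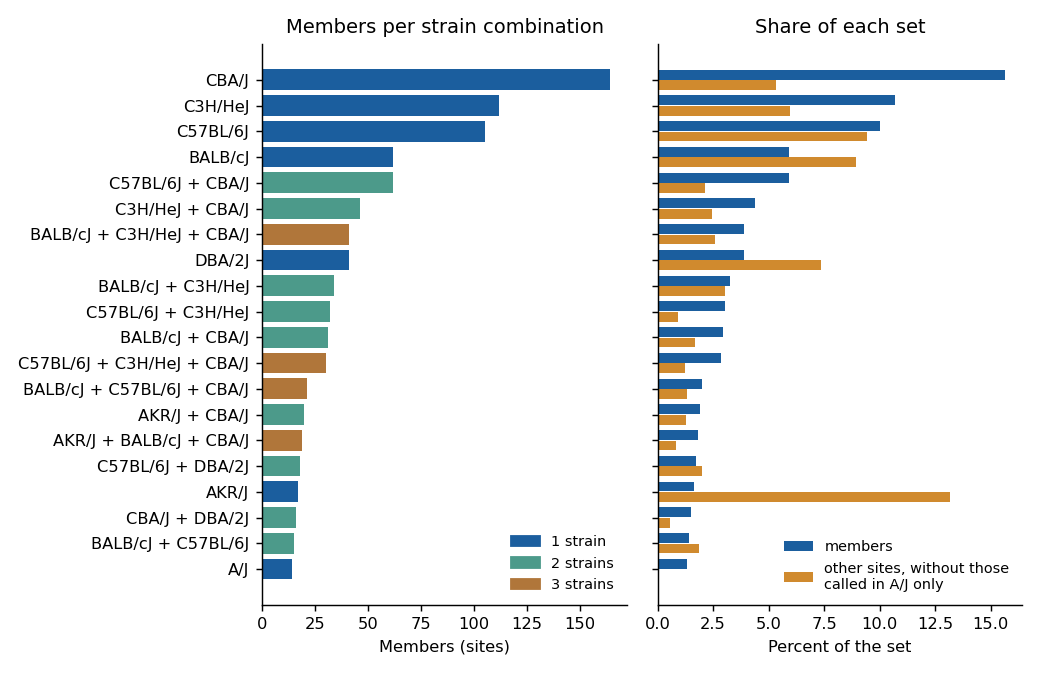
The 20 most frequent strain combinations among members. Left, bars give the number of members called in exactly these inbred strains, coloured by the number of strains. Right, bars give each combination as a percent of the members (blue) and of the other sites called in 1 to 3 strains without A/J-only sites (orange), where CBA/J alone holds 15.6% of members and 5.31% of other sites and AKR/J alone 1.62% and 13.2%.

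The BXH strains had no part in the choice of members. A peak in the BXH2/TyJ list overlapped 303 members (28.9%, 95% interval 26.2 to 31.8%) and a peak in the BXH19/TyJ list 259 (24.7%, 22.1 to 27.4%). Over all autosomal union sites the shares were 54.7% and 55.7%. Both BXH lists called 104 members (9.92%, 8.18 to 11.9%), against 45.2% of union sites, and 590 members (56.3%) had a peak in neither. Members were thus called in the BXH livers less often than union sites at large, which include those with peaks in 4 to 7 inbred strains. Intervals are exact Clopper-Pearson intervals, which cover counting error only, because neighbouring sites are not independent and each BXH list is 1 combined sample.

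Sites with the same number of calling strains give the closer comparison. At other sites called in 1 to 3 strains, the shares were 19.3% in BXH2/TyJ and 17.97% in BXH19/TyJ, so members lay 9.63 and 6.74 points higher. Without A/J-only sites, the difference was 8.62 points for BXH2/TyJ and -0.04 points for BXH19/TyJ, where 24.8% of the other sites had a peak. The excess in BXH2/TyJ was therefore present in both of these pooled comparisons and that in BXH19/TyJ was not. The pooled sets differ in their mix of strains, however. Sites called in AKR/J alone were 13.2% of the other sites without A/J-only sites and 1.62% of members. Of these 2016 other sites, 31.8% had a peak in BXH19/TyJ and 1.09% in BXH2/TyJ. They raise the pooled BXH19/TyJ share of other sites and lower their BXH2/TyJ share. Differences within each strain are given below. Split by strain number, 20.4%, 31.3% and 45.8% of members called in 1, 2 and 3 strains had a peak in BXH2/TyJ. The other sites without A/J-only sites gave 8.61%, 27.1% and 39.4%. In BXH19/TyJ the members' shares were 17.7%, 23.2% and 43.9% and those of the other sites 16.1%, 26.0% and 44.5%, with intervals that overlap at each number. The gap in BXH2/TyJ was widest at sites called in 1 strain, where the members' interval (17.0 to 24.1%) did not overlap that of the other sites (7.99 to 9.26%).

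**Figure D3:**
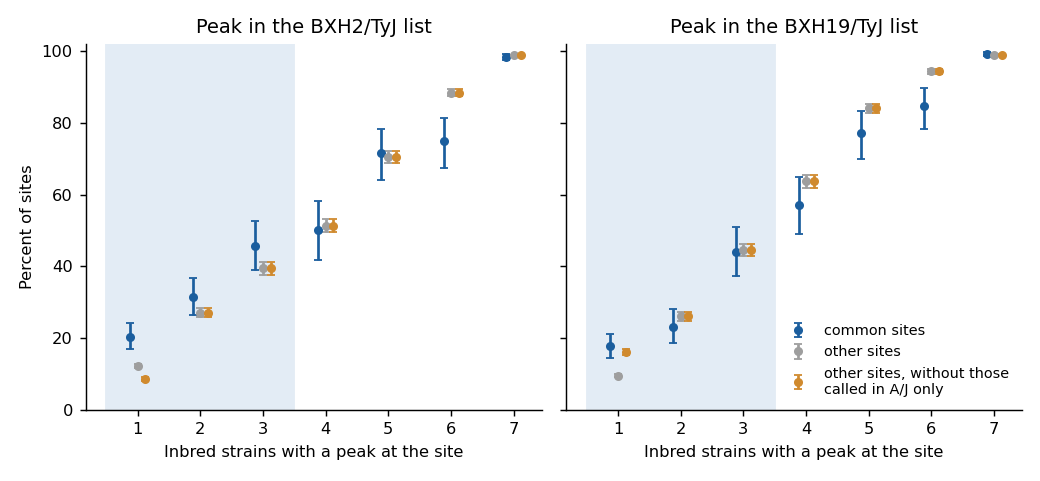
Percent of sites with a peak in the BXH2/TyJ list (left) and the BXH19/TyJ list (right) by the number of inbred strains with a peak, with exact 95% intervals as bars. Blue points are common sites, grey points other sites and orange points other sites without A/J-only sites, and the shaded range of 1 to 3 strains holds the members. Shares rise from 20.4% to 98.5% of common sites in BXH2/TyJ and from 17.7% to 99.3% in BXH19/TyJ.

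A BXH peak is wider than some of these sites and can also reach a neighbour, so the peaks behind the calls were traced. In BXH2/TyJ, 297 of 303 called members had a peak that touched no other union site, and in BXH19/TyJ 257 of 259. The BXH peaks at members were weak as well, with a median percentile of 14.5 in BXH2/TyJ and 11.4 in BXH19/TyJ and 69.0% of the 562 peaks below percentile 20. Of 6 BXH peaks at or above percentile 50, chosen after their values were seen, 4 also covered another site. The highest, at percentile 99.9 of BXH19/TyJ, was a peak of 1042 bp near Ykt6 that also covered a site called in all 7 strains.

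The BXH shares were next split by the calls in the parents. When C57BL/6J and not C3H/HeJ had called the member (254 sites), 25.2% had a peak in BXH2/TyJ and 23.2% in BXH19/TyJ. With C3H/HeJ and not C57BL/6J (292 sites) the shares were 30.8% and 27.4%, and with both parents (83 sites) 38.6% and 27.7%. Among the 419 members that neither parent had called, 27.9% (23.7 to 32.5%) still had a peak in BXH2/TyJ and 23.2% (19.2 to 27.5%) in BXH19/TyJ. These shares were as high as when C57BL/6J alone of the parents had called, and the intervals of these groups overlap. At other sites with a call in both parents the shares were 38.3% in BXH2/TyJ and, at 299 of 598 sites, 50% (45.9 to 54.1%) in BXH19/TyJ. In BXH19/TyJ the members (18.4 to 38.6%) were lower, and 48.2% of members and 33.3% of other sites had a peak in neither BXH list. These sets are not matched for strain number, with which BXH shares rise. The 2 parents alone called 32 of the 83 members but 139 of the 598 other sites. The part of this mix in the lower share was not tested. With C57BL/6J as the only calling parent the other sites had 23.7% and 23.5%, and with C3H/HeJ 27.5% and 29.8%. At other sites called in neither parent the shares were 15.1% and 11.99%, or 13.6% and 21.0% without A/J-only sites. Both BXH lists called 36 of the 419 members (8.59%), against 2.70% of other sites called in neither parent, or 4.26% without A/J-only sites. Mice of a recombinant strain carry only alleles of its 2 parents, apart from new mutations. What lies behind BXH calls at sites that neither parent called was not tested.

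Single-strain sites were also compared at like percentiles, a split chosen after the data were seen. In the weakest bin, at or under percentile 5, either BXH list had a peak at 27.7% of 191 members and at 11.1% of 2386 other sites. From percentile 5 to 10 the shares were 33.3% of 135 and 12.3% of 2109, and from 10 to 20 they were 35.1% of 151 and 14.98% of 3452. Without A/J-only sites, the other sites gave 14.3%, 16.5% and 20.7% in these bins. Above percentile 20 only 38 members remained, of which 52.6% (35.8 to 69.0%) had a BXH peak, against 30.5% of other sites, or 34.1% without A/J-only sites. Members had the higher share in all 4 bins.

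The strain is the unit that the lists allow for a test. For each of the 7 inbred strains, members called in that strain only were compared with other sites called in that strain only, and the 7 differences were tested by an exact two-sided sign-flip permutation test over all sign assignments, whose smallest possible p is 0.0156. Members had more BXH2/TyJ peaks in 5 of 7 strains, with a mean difference of 7.84 ± 6.88 points (SD, n = 7; exact permutation p = 0.0625, adjusted p = 0.125 over the 4 measures). More BXH19/TyJ peaks were found at members in 7 of 7 strains, by 7.28 ± 6.97 points (exact permutation p = 0.0156, adjusted p = 0.0625). Neither difference passed the threshold of 0.05 after adjustment, although that for BXH19/TyJ was as small as this design allows before it. The difference in BXH19/TyJ was 1.24 points for C3H/HeJ, 2.10 for CBA/J, 2.84 for DBA/2J, 5.62 for A/J, 8.37 for C57BL/6J, 9.33 for AKR/J and 21.4 for BALB/cJ. In BXH2/TyJ it ran from -3.15 points for DBA/2J and -1.002 for C57BL/6J to 13.0 for C3H/HeJ and 13.1 for BALB/cJ. A/J rests on 14 members and AKR/J on 17, so these strains' values carry a large counting error.

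**Figure D4:**
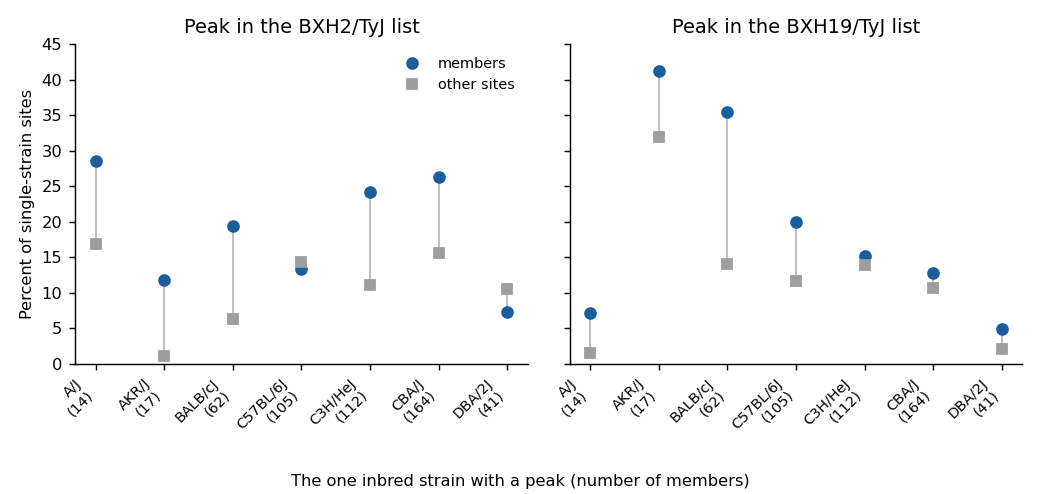
Percent of sites called in exactly 1 inbred strain that have a peak in the BXH2/TyJ list (left) or the BXH19/TyJ list (right), by that strain, with the number of members in parentheses. Blue circles are members, grey squares other sites and lines join the pair, with no error bars since each list is 1 combined sample. Members lie higher in 5 of 7 strains on the left and in 7 of 7 on the right.

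Members lay mostly away from promoters. A TSS of a protein-coding gene was within 1 kb of 9.83% of members (8.09 to 11.8%), and the median distance was 12393 bp. Among other sites called in 1 to 3 strains the share was 22.9%, or 13.4% without A/J-only sites, and among common sites called in 7 strains it was 73.3%. A TSS lay inside 34 members, while 447 were upstream of their nearest TSS and 567 downstream. By annotation, the members without a TSS within 1 kb fell in exons (79 sites, 7.54%), introns (433, 41.3%) and intergenic sequence (433, 41.3%). Other sites had 11.3%, 32.1% and 33.6% in these classes. Without A/J-only sites they had 8.44%, 38.7% and 39.4%, close to the members. In the single-strain comparison the TSS share differed by -38.8 points in A/J and by -1.18 to 3.90 points in the other 6 strains (mean -4.52 ± 15.2 points, SD, n = 7; exact permutation p = 0.891, adjusted p = 0.891). Without A/J the mean difference was 1.19 points (adjusted exact permutation p = 0.25 over 6 strains).

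The members were spread over all 19 autosomes. Between 1.56% (chromosome 3) and 2.47% (chromosome 12) of a chromosome's union sites were members. Another member was within 100 kb of 231 (22.0%) and within 10 kb of 40 (3.82%). A site called in all 7 strains lay within 1 kb of 8.97% of members and 11.3% of other sites (9.28% without A/J-only sites). In a strain that had not called the member, a peak that missed it lay within 1 kb in 752 of 5541 cases (13.6%), against 17.5% at other sites, or 15.2% without A/J-only sites. These nearby peaks come from the same lists as the rule and were not tested.

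The GC content of members fell in a narrow range. It averaged 52.4 ± 3.05% (SD over 1048 sites), and 5% of members lay below 47.1% and 5% above 57.03%. Other sites called in 1 to 3 strains had 54.05 ± 7.97% and variable sites with as many calls 57.9 ± 9.20%. Without A/J-only sites the other sites had 50.7 ± 6.28%, so the mean lay above or below that of the members depending on A/J, but the SD was more than 2 times that of the members in both cases. Common sites called in 4 to 6 strains had a like spread of 3.15 points. From 48 to 57% GC, a range chosen after the data were seen, lay 86.9% of members, 43.2% of the other sites and 29.0% of the variable sites. Of all sites called in 1 to 3 strains, members made up 10.3% (9.40 to 11.3%) between 51 and 54% GC, 0.06% between 60 and 65% and 0 of 823 below 40%, for which the exact interval reaches 0.447%. Variable sites made up 4.82% between 51 and 54% GC and 15.3% from 65% upward. Beside these values, the lists themselves differed in GC. Union sites called in A/J averaged 58.8% and those of the other 6 inbred lists 53.9 to 55.2%, and other sites called in A/J only averaged 62.2% but those in AKR/J only 42.4%. The part of this in the narrow range was not tested. In the single-strain comparison the mean GC difference was 1.19 ± 4.05 points (SD, n = 7 strains; exact permutation p = 0.50, adjusted p = 0.667), with a difference of -5.33 points in A/J and of 8.27 points in AKR/J.

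**Figure D5:**
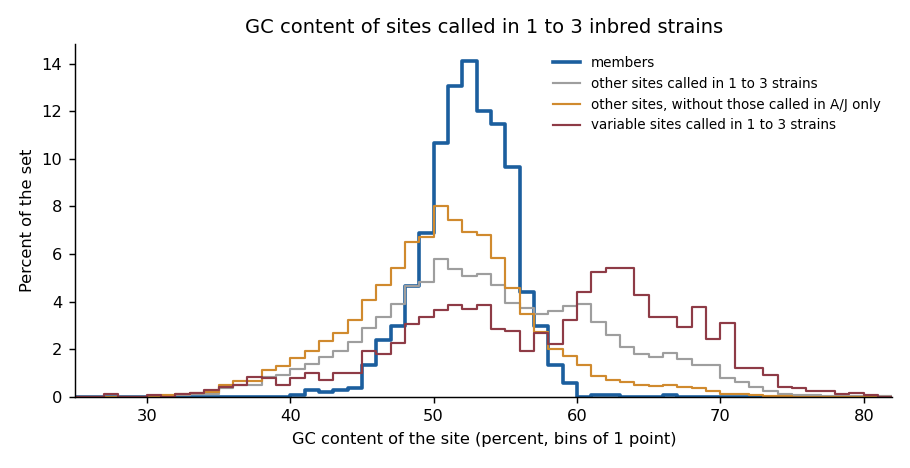
GC content of sites called in 1 to 3 inbred strains, as the percent of each set in bins of 1 point. Members (thick blue) form 1 narrow peak, with 86.9% between 48 and 57% GC, while the other sites (grey, and orange without A/J-only sites) and the variable sites (dark red) are broader, with 43.2%, 56.3% and 29.0% in that range.

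CpG dinucleotides were sparse at members, with a median of 1.57 per 100 bp, against 5.29 at common sites called in 7 strains, many of which are promoters. The 13 motifs were searched in the central 200 bp of every site, and a match is a description of the letters and not a bound factor. The GC box GGGCGG, a promoter element bound by SP factors, was in 7.35% of members (5.84 to 9.10%), 16.7% of other sites, 9.17% of those left without A/J-only sites, and 21.5% of all union sites. The GAS element TTCNNNGAA, the site of STAT factors, was in 7.82% of members (6.27 to 9.62%) and 5.11% of other sites (6.08% without A/J-only sites). The core AGGGGGC of the CTCF motif was in 9.35% of members (7.66 to 11.3%), 7.44% of other sites and 5.18% of those without A/J-only sites. Common sites called in 7 strains held it in 10.5% (8.65 to 12.5%). The E box CACGTG was in 3.24% of members and 5.204% of other sites, and the FOXA core TGTTTAC in 2.58% and 3.52%. Without A/J-only sites the other sites held the E box in 5.79% and the FOXA core in 4.55%. In windows of 48 to 57% GC alone, GAS was in 8.64% of 822 members and 5.66% of 9091 other sites, CTCF in 9.61% and 5.43%, and the E box in 3.28% and 5.97%. These other sites include A/J-only sites, and this range was not compared without them. The GC box was in 6.57% and 7.18% of these windows, so most of its difference was not seen there. AGGTCA was in 23.1% and 25.1%, TTGGCA in 18.98% and 19.1%, and the FOXA core in 2.43% and 4.28%. With the central 300 bp of all sites, the FOXA core was in 4.68% of members, 4.82% of other sites and 4.60% of union sites. The FOXA gap thus nearly closed against these sets, but not against other sites without A/J-only sites (6.07%). CTCF was then in 10.4%, 9.89% and 9.80%, and in 6.72% without A/J-only sites. GAS (10.97% of members, 8.06% of other sites) and the E box (4.96% and 6.89%) kept their order.

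The other motifs were compared with the same sets. AGGTCA was in 22.9% of members, 20.4% of other sites and 19.1% of all union sites. The NFI element TTGGCA was in 18.03%, 15.9% and 15.1% of these sets, and the CCAAT box in 21.3%, 20.7% and 21.2%. Other sites without A/J-only sites held these in 24.4%, 19.4% and 24.01%, each above the share of members. At common sites called in 7 strains AGGTCA was in 10.6% (8.74 to 12.7%), against an interval of 20.4 to 25.6% for members, TTGGCA in 7.29% and the CCAAT box in 20.96%. On 1 strand TTGGCA reads TGCCAA and can share its last letters with CCAAT, as in the window of the distal Lipc member. The HNF4A element CAAAGTCCA was in 0.859% of members (0.393 to 1.62%), 1.29% of other sites and 1.74% without A/J-only sites, the TATA box TATAAA in 3.44% and 4.18%, the ETS core CCGGAAG in 2.10% (1.32 to 3.16%) and 2.49%, and the CRE TGACGTCA in 0.286% and 0.365%. The palindrome TTGCGCAA of C/EBP was in 1 member. Over all union sites these shares were 1.19% for CAAAGTCCA, 3.67% for TATAAA, 4.02% for CCGGAAG, 0.626% for TGACGTCA, 0.132% for TTGCGCAA, 3.25% for TGTTTAC, 4.92% for GAS, 7.10% for CTCF and 5.72% for the E box.

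The members were nearest to the TSSs of 974 protein-coding genes, of which 903 were nearest to 1 member only. Fam20c, Pck1 and Tcf7l2 were nearest to 3 members each, the highest number. Genes of 11 lists chosen for liver were nearest to 48 members (4.58%), against 4.81% of all union sites, so the lists as a whole were not more frequent than over the union.

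Genes of lipid and lipoprotein metabolism were nearest to 13 members (1.24% against 1.04% of union sites). Lipc encodes hepatic lipase, which hydrolyses lipoprotein lipids at the hepatocyte surface, and 2 members lie in its introns. In these accounts an inbred or BXH list that is not named had no call. The proximal one, chr9:70783810-70784080, 1195 bp from a TSS, was called in BALB/cJ at percentile 6.25 and in C57BL/6J at 10.01, and also in BXH2/TyJ at 3.14 and BXH19/TyJ at 24.9. The distal one, chr9:70711115-70711414, is nearest to the TSS of Gm3436 (10758 bp) and was called in A/J at percentile 10.98, in BALB/cJ at 4.09 and in C3H/HeJ at 12.8, and in BXH2/TyJ at 2.29 and BXH19/TyJ at 18.2. Both were low in all inbred lists that called them and higher in BXH19/TyJ than in BXH2/TyJ. In Scarb1, the HDL receptor, an intronic member of 555 bp (chr5:125798379-125798933) was called in BALB/cJ alone at percentile 10.5 and in neither BXH list. The members near Dgat2, an enzyme of triglyceride synthesis (C57BL/6J 5.11, C3H/HeJ 3.22), and near Acsl1, an acyl-CoA synthetase (BALB/cJ 9.52, C3H/HeJ 20.9), were also in neither BXH list. Of the 13 members nearest to a gene of this list, 2 had a peak in BXH2/TyJ and 1 in BXH19/TyJ. Over all members the shares were 28.9% and 24.7%, and over union sites 54.7% and 55.7%. With 13 sites the difference was not tested.

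Genes of glucose and insulin metabolism were nearest to 6 members (0.573% against 0.565%). The member nearest to a TSS of this list, chr11:120395446-120395739, lies in Gcgr, the glucagon receptor, 245 bp upstream of a TSS. It was called in C57BL/6J at percentile 7.75, in C3H/HeJ at 10.94 and in BXH19/TyJ at 10.96, so that the parents and 1 BXH strain gave like values. Pck1 encodes the rate-limiting enzyme of gluconeogenesis. Its member over coding exons, chr2:172981404-172981850, was called in C57BL/6J at 15.3, in C3H/HeJ at 20.1 and in BXH2/TyJ at 3.55. A member 6813 bp upstream of Pck1, chr2:172971377-172971736, was called among the inbred strains in BALB/cJ alone at 5.21, but in BXH2/TyJ at 12.1 and in BXH19/TyJ at 29.5, although neither parent had a call. Upstream of Igfbp2, which encodes an insulin-like growth factor binding protein, BALB/cJ (2.72) and C57BL/6J (6.23) had a call and both BXH lists had none.

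Hepatocyte transcription factors were nearest to 11 members (1.05% against 0.852%). HNF4A is a nuclear receptor that controls much of the hepatocyte program, and 2 members flank TSSs in its gene. The one at chr2:163363184-163363544, 429 bp downstream of a TSS, was called in A/J at percentile 20.7, in C3H/HeJ at 7.14, in DBA/2J at 17.3 and in BXH19/TyJ at 11.5. The other, chr2:163374411-163375097, 722 bp upstream of another TSS, was called in BALB/cJ at 9.44, C57BL/6J at 5.77 and C3H/HeJ at 9.68. C3H/HeJ was the one strain that called both. In Nfix, a nuclear factor I gene, the values were 27.8 in AKR/J, 9.89 in C3H/HeJ, 12.9 in BXH2/TyJ and 28.3 in BXH19/TyJ. Over an untranslated exon of Stat3, which carries cytokine signals to the nucleus, they were 11.2 in C57BL/6J, 22.8 in C3H/HeJ and 12.6 in CBA/J, and this member lay 220 bp from a site called in all 7 strains.

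The other lists were nearest to few members. Shares of members and of union sites were 0.191% and 0.329% for drug metabolism and transport, 0.191% and 0.311% for plasma proteins and 0.0954% and 0.303% for the clock. They were 0.191% and 0.363% for interferon, STAT and growth hormone genes, and 0.0954% and 0.182% for the ribosome. The member near Cyp1a2, an enzyme of drug oxidation, was called in BALB/cJ (percentile 3.30) and at a higher percentile in BXH2/TyJ (17.6). For plasma proteins, the members were near F11, coagulation factor XI (BALB/cJ 5.53), and Serpina3n, a protease inhibitor (C57BL/6J 12.6, CBA/J 20.8). For the clock, an intron of Per2 held a member called in BALB/cJ alone at 1.34. Chromatin regulators were nearest to 6 members (0.573%, 0.210 to 1.24%, against 0.359% of union sites). Among them were introns of the deacetylase gene Hdac3 (C3H/HeJ 8.19, DBA/2J 0.680), the remodeller gene Smarca4 (C3H/HeJ 10.6) and the DNA methyltransferase gene Dnmt3a (A/J 15.7, C3H/HeJ 11.9, BXH2/TyJ 15.2).

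In the list of interferon, STAT and growth hormone genes, the member 1510 bp upstream of Socs2, an inhibitor of growth hormone signalling, was called in BALB/cJ at 14.7, C57BL/6J at 11.5 and CBA/J at 12.8, with 6.25 in BXH2/TyJ and 27.95 in BXH19/TyJ. An intron of Ptpn1, a phosphatase of the insulin receptor, was called in BALB/cJ at 7.496 and C3H/HeJ at 12.1. The ribosomal gene Rps3 had a member 16436 bp upstream with high values for this set, 30.3 in C57BL/6J, 31.7 in CBA/J, 41.0 in BXH2/TyJ and 12.8 in BXH19/TyJ. Markers of other liver cells were nearest to 4 members (0.382%, 0.104 to 0.974%, against 0.164% of union sites). These lay at Pecam1 of endothelium, Krt19 and Epcam of bile ducts and Emr1 of macrophages, each 13045 bp or more from the TSS. For amino acid and nitrogen metabolism the count was 0 of 1048 members, against 0.339% of union sites, and the exact interval of the members' share reaches 0.351%.

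The strongest members were still far from the top of their lists. The member with the highest mean percentile, chr14:56441385-56441602 near Nfatc4, a transcription factor activated by calcineurin, was called in C57BL/6J at 44.4, in BXH2/TyJ at 38.3 and in BXH19/TyJ at 3.74. Next came a member 1158 bp upstream of a TSS of Zbtb20, a zinc finger repressor found in liver, with 49.3 in C57BL/6J and 38.1 in DBA/2J, only 93 bp from a site called in all 7 strains. The next 3 lay near Actl7b, Vrk1 and Slc25a26 with mean percentiles of 35.9, 34.2 and 34.0. At the other end, the member near Olfr16 was called in C3H/HeJ at percentile 0.0132, and those near Fgf18 and Mfap3 in CBA/J at 0.0376 each. The member near Ralgps1 was called in AKR/J at 0.0434. An intronic member of Nr5a2, a nuclear receptor of bile acid and cholesterol genes, was called near the bottom of both its lists, in BALB/cJ at 0.126 and in C57BL/6J at 0.0556. None of these 5 had a BXH peak.

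Among members with a peak in both BXH lists, the one 11112 bp upstream of Egr3, an early growth response gene, ranked highest. Its inbred values were 22.7 in AKR/J, 20.9 in C3H/HeJ and 15.4 in CBA/J, below the 48.8 in BXH2/TyJ and the 31.0 in BXH19/TyJ. Members near Tnfrsf19 (37.7 and 31.9 in BXH2/TyJ and BXH19/TyJ), Gng12 (28.04 and 40.5), Ccdc94 (29.6 and 36.5) and Cyth4 (42.8 and 23.2) followed, and each had its BXH values above all of its inbred values. Since these members were picked for high BXH percentiles, that order is a description. Of these 5, the member near Ccdc94 had a call in neither parent, with AKR/J at 19.2, BALB/cJ at 22.8 and CBA/J at 19.8. The next such member, chr5:34860559-34860927 near Tnip2, an inhibitor of NF-kB signalling, was called in BALB/cJ alone at 5.04 but in BXH2/TyJ at 44.5 and in BXH19/TyJ at 15.5. Those near Ets2, Kalrn and 4933425O20Rik were each called in AKR/J and CBA/J with BALB/cJ or A/J, in BXH2/TyJ at 39.4, 34.6 and 34.9 and in BXH19/TyJ at 8.15, 11.95 and 13.8. The BXH19/TyJ values near Ets2 and 4933425O20Rik lay below the 19.5 and 29.3 of CBA/J, and that near Kalrn below the 14.8 of AKR/J.

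The widest members lay near genes of several kinds. The widest, of 955 bp and 21042 bp upstream of the TSS of Tcf7l2, a transcription factor of the Wnt pathway, was called in A/J at 1.79, BALB/cJ at 23.2, BXH2/TyJ at 1.36 and BXH19/TyJ at 18.4. A member of 852 bp in an intron of Palm, nearest to the TSS of 9130017N09Rik, was called in BALB/cJ at 32.0, C3H/HeJ at 20.7, CBA/J at 11.5 and BXH19/TyJ at 20.8. A member of 845 bp lay over a TSS of Col18a1, the collagen that yields endostatin, at 5.85 in BALB/cJ, 18.8 in C3H/HeJ and 0.108 in CBA/J, and it reached 23.2 in BXH2/TyJ and 37.5 in BXH19/TyJ.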

How the data were processed

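FAIRE-seq was measured in 18 liver samples, 2 mice for each of 9 strains. Per the study's methods, the authors mapped reads with Bowtie to mm9 genomes carrying each strain's SNPs, kept unique reads without PCR duplicates, called peaks per library with F-seq, kept peaks that the IDR procedure found reproducible, merged the inbred lists into a union and compared reads with DESeq. Reads of the BXH strains were aligned to mm9 and to a C3H/HeJ pseudo-genome, and which of these gave the deposited lists was not stated, nor were the IDR threshold and tool versions. The deposited peak lists give coordinates and a score per peak (column 7), made by the authors on a scale of its own in each list. The study gives read totals per library, which were not used here, and the lists hold no read counts per peak, so the precision of a single call is unknown.

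Peaks were overlapped with union sites (at least 1 bp), scores were turned into within-list percentiles, and GC content, TSS distance (protein-coding genes) and 13 motifs were read from NCBIM37 (Python 3.11.15, pandas 2.3.3, numpy 2.4.6, scipy 1.17.1). Shares have exact Clopper-Pearson 95% intervals. The only test was an exact two-sided sign-flip permutation test over 7 strains, with Benjamini-Hochberg adjustment over 4 measures. Functions were tested on simulated data. The members, gene lists and motifs were chosen with earlier results of these data known. Sites named are those inside Lipc, up to 4 per gene list nearest to a TSS, the 5 highest and 5 lowest by mean percentile, the 5 highest in both BXH lists, overall and with no call in a parent, and the 3 widest. Some sites and sequences that this rule names are not reported here. Of 382 listed genes 378 were matched. Alternatives were another overlap, stricter lists, other windows, gene types and comparison sets, and leaving out each inbred list.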

Additional observations from a re-analysis of the deposited data

Results flagged for a closer look

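Of 16 sets of 7 strain values, 6 had a strain whose gap to the nearest other value exceeded Dixon's 95% critical share of the whole range for 7 values, which chance passes in about 1 of 20 sets. The sets share strains and sites. A/J was the strain in 4 of them. It called 39.9% of other sites called in 1 to 3 strains, members called in it averaged 55.2% GC, union sites called in it averaged 58.8% GC, and its members called in no other strain differed from A/J-only other sites by -38.8 points in the share with a TSS within 1 kb. BALB/cJ stood apart in the BXH19/TyJ share, where its single-strain members exceeded its other single-strain sites by 21.4 points. In CBA/J, 20.2% of members without a call had a peak within 1 kb, against 11.6 to 13.8% in the other strains. At other sites called in 1 to 3 strains CBA/J was also highest, with 19.95%, or 17.9% without A/J-only sites. The CBA/J value at members thus lay near its value at other sites.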

How the results depend on the processing

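No paired analysis was possible because each deposited list combines both mice of a strain. Keeping only the 20000 highest peaks of each list changed the set itself, to 328 sites of which 45 were members before. In that set BXH2/TyJ called 21.0%, BXH19/TyJ 19.5%, both 5.18% and neither 64.6%, a TSS within 1 kb was found at 12.8%, the median width was 383.5 bp, 197, 77 and 54 sites were called in 1, 2 and 3 strains, and CBA/J alone, C57BL/6J with CBA/J, and BALB/cJ with C3H/HeJ and CBA/J held 40, 8 and 1. Members called in 1 and in 3 strains had shares of 20.4% and 45.8% in BXH2/TyJ, 17.7% and 43.9% in BXH19/TyJ, 4.85% and 22.9% in both and 66.8% and 33.2% in neither. The TSS share was 18.03% at 2.5 kb, 30.3% at 5 kb and 11.9% with all gene types. Mean GC was 53.6% in the central 200 bp, the calling peaks had a median width of 282 bp, peaks near uncalled members were found in 6.88% of cases at 500 bp and 22.02% at 2 kb, and 78.0% of members held a motif in 300 bp. Without A/J-only sites, the difference from other sites was -3.56 points for the TSS share, 1.68 points for GC and -0.0429 points for BXH19/TyJ, the last 2 with the sign turned. Without A/J, the single-strain TSS difference was 1.19 points, also with the sign turned. Over all sites called in 1 to 3 strains, by strain, the BXH2/TyJ difference was 11.1 points and that of BXH19/TyJ 2.38 points, with adjusted exact permutation p of 0.0625 and 0.672, and the TSS difference was -6.26 points, higher in 1 of 7 strains (exact permutation p = 0.03125, adjusted p = 0.0625, against p = 0.891 in single-strain sites). Here a site called in 2 or 3 strains enters the difference of each of them. The 7 differences thus share sites and are not independent, so these p-values are a description only. Leaving out 1 inbred list at a time gave 1020 to 1113 members, of which BXH2/TyJ called 29.97 to 32.4%, BXH19/TyJ 26.0 to 31.1%, both 10.9 to 13.9% and neither 50.4 to 55.0%. A 50% overlap of the peak or of the site could not change the members. Sites are merged from the inbred peaks, so each such peak lies wholly inside its site. The causes were not tested.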
